A study of Homo sapiens with 4 samples.

Results

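The genes followed here encode 10 transcription factors that set luminal or basal identity in the bladder lining: PPARG, RXRA, GATA3, GATA2, GATA6, FOXA1, TBX3, ELF3, TP63 and GRHL2. They were chosen by name, as the 10 matching rows among 61860 in a gene count table, and all 10 names matched a single row. RNA-seq had been run on cells labelled HT1376, the name of an established bladder cancer line, and grown in MEM medium with serum. A control group labelled WFI (control, n = 2) was set against a group given enfortumab vedotin at 1 nM (EV, n = 2), both for 48 h. All samples share the 1 line and total RNA as the source, and the labels do not say whether replicates were separate cultures, so a p-value here reflects the spread among 4 libraries, and that spread may be purely technical. EV is an antibody that binds nectin-4 and carries a payload that blocks microtubules. The comparison asks how transcripts differed after EV. Measurements come from a whole population, so a smaller number of cells expressing a gene and less RNA per cell cannot be told apart.

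Luminal urothelium is maintained by a small circuit. PPARG, a lipid-activated nuclear receptor, binds DNA as a dimer with RXRA, and acts with the zinc finger factor GATA3 and the pioneer factor FOXA1 to switch on uroplakins and luminal keratins. ELF3 and GRHL2 are epithelial factors that act on differentiation and cell junctions, TBX3 is a T-box repressor found in urothelium, and TP63 maintains the basal layer. GATA2 and GATA6 belong to the same family as GATA3 and are better known from blood, vascular and endodermal tissue, and GATA6 is also studied in bladder tumours.

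Library totals lay between 19368791 and 20727175 counts. A gene was called changed at an adjusted p below 0.05 in edgeR's quasi-likelihood test, and of 17465 genes that passed the count filter 66% were called, 34.5% higher in EV and 31.5% lower. Calls in both directions were thus common in this table. The labelled cell type was checked against its markers. Of 28 luminal urothelial genes listed, 17 had fewer than 10 counts in both controls, the uroplakin genes UPK1A, UPK1B, UPK2, UPK3A and UPK3B and the keratin genes KRT20, KRT13 and KRT19 among them. Of 25 basal and squamous genes, 17 were as low, including KRT5, KRT14 and KRT6A, and E-cadherin (CDH1) had 1 count in all over the controls. Others of the basal list were abundant in the controls, with CD44 at 1023 CPM, EGFR at 557 and DSC3 at 155. ERBB2 of the luminal list stood at 146 CPM there. KRT8, KRT18 and KRT7, keratins of simple epithelium, were abundant (733, 387 and 436 CPM in the controls), as were the mesenchymal genes FN1 and VIM (10014 and 1724 CPM). PAX8, a lineage factor of kidney, thyroid and Müllerian epithelium, stood at 516 ± 6.25 CPM (SD, n = 2) in the controls and was singled out after its value was seen. Per kilobase of merged exons it reached 69.8 RPKM there, against 16.6 for TBX3, the highest of the 10 factors. CPM are counts relative to the TMM-scaled library total, and RPKM are CPM divided by the length of the merged exons in kilobases. Some genes of both lists were abundant, but most of the listed markers, luminal and basal, were near 0 in cells labelled as bladder cancer. The identity of the line is therefore in doubt, could not be settled from gene counts, and is given here as labelled. What part the lack of luminal markers plays in the results was not tested.

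Start-site windows of 3 members that moved in different directions are shown: GATA2 had the largest rise among members with counts in the controls, FOXA1 rose and RXRA was the member that fell. Each window runs from 250 bases before to 50 bases after a RefSeq transcript start (GRCh38.p14) and is written along the gene's own strand. Capitals mark matches to 9 motifs, each searched on both strands and spelled out with its frequency after the sequences. None of these motifs contains another whole, though neighbouring GC boxes can overlap each other.
GATA2 upstream start, chr3:128493152-128493451, minus strand: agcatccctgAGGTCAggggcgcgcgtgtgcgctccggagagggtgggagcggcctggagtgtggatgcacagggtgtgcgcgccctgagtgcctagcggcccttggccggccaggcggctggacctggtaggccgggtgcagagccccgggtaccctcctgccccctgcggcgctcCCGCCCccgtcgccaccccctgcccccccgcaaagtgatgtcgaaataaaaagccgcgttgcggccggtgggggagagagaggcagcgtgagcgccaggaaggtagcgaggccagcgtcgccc
GATA2 downstream start, chr3:128488481-128488780, minus strand: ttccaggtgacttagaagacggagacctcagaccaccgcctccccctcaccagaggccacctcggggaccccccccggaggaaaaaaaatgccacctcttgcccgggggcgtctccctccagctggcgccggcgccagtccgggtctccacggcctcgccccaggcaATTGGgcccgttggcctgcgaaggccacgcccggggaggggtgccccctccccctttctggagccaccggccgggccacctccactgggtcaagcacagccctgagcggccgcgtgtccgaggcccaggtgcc
FOXA1 start, chr14:37595200-37595499, minus strand: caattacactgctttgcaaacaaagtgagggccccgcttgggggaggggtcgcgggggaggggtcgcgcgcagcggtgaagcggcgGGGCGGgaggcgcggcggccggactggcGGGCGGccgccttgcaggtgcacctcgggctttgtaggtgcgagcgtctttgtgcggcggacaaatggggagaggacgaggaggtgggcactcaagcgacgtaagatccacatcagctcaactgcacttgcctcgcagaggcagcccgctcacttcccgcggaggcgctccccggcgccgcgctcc
RXRA upstream start, chr9:134326205-134326504, plus strand: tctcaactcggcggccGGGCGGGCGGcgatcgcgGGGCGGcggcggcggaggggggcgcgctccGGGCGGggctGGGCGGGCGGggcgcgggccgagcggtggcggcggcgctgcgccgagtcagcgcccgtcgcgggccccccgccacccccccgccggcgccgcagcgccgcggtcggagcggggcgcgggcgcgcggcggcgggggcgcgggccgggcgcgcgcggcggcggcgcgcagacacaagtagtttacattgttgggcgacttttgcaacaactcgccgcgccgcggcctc

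The upstream RXRA window had a GC content of 84% with 65 CpG dinucleotides and 6 GC box matches, and the FOXA1 window 69.3%, 34 and 2. The second RXRA window, chr9:134379045-134379344 and not printed, differed from the upstream one, with 64.7% GC, 8 CpGs and 1 GC box. The GATA2 windows had 72.3% and 71.3% GC, with 29 and 22 CpGs, against medians of 58.7% and 14 over the 35114 windows of the table. The GC box, spelled GGGCGG, was found in 45% of those windows, and the CCAAT box by its own letters in 34.6%. A nuclear receptor hexamer, AGGTCA, was found in 13.8% of windows. A GATA site was searched as AGATAA or with its last letter G, and as TGATAA or with its last letter G, and at least 1 of these forms was found in 25% of windows. The TATA box, TATAAA, was found in 11.5% of windows. The AP-1 site, TGANTCA with N for any base, was found in 7.71% of windows, and the E-box, searched as CACGTG, in 7.26%. A FOXA site, TGTTTAC, was found in 3.42% of windows and the cyclic AMP element, TGACGTCA, in 1.85%. The upstream GATA2 window held 1 GC box and 1 nuclear receptor hexamer, and the downstream window 1 CCAAT box. None of the 4 printed windows held a GATA, TATA, AP-1, cyclic AMP, E-box or FOXA match, which says only that these letters are not in these 300 bases. The table gave 20 windows for 8 of the members, and GATA sites were found in 2 of the 6 PPARG windows (2 matches and 1) and in the TP63 window (1 match). Gene counts add the transcripts from all starts, so which start was used was not measured.

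Of the 10 members 9 passed the count filter, and in EV 6 of these were called higher (GATA2, GATA3, TBX3, FOXA1, TP63 and PPARG), 1 lower (RXRA), and GATA6 and ELF3 were not called. GRHL2 did not pass. Among the 5 that rose from counts above 0 in the controls, the size ran from 15.9-fold for GATA2 to 1.16-fold for PPARG. TP63 was at 0 in both controls and passed the filter only through its EV counts, so it could only rise. Among the 8 other tested members the median log2 fold change was 0.58, beside -0.05 over the 15117 tested genes that were not likewise low in 1 group, of which 29.6% were higher and 33.5% lower. Groups did not overlap in CPM for 8 of the 9 tested members (all but GATA6), but this also held for 82.8% of all genes tested. A log2 fold change of at least 1 was reached as well by 4 members (GATA2, TBX3, GATA3 and TP63), all higher, and by 30.8% of all genes in either direction and 17.5% upwards.

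**Figure D1:**
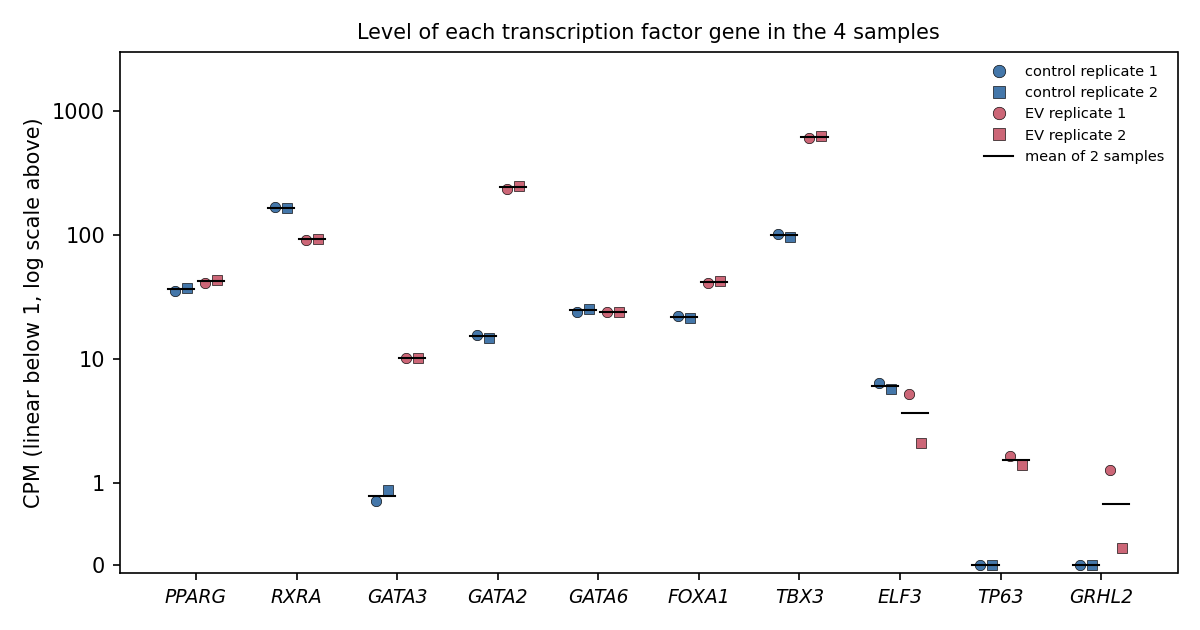
CPM (counts relative to the TMM-scaled library total) of the 10 genes in the 4 samples, on an axis that is linear below 1 and logarithmic above; circles and squares are replicates 1 and 2, blue is control, red is EV, and black lines are means of 2 samples. GATA2 and TBX3 stand far above their controls in both EV samples, RXRA stands below, GATA6 overlaps, and TP63 and GRHL2 are at 0 in both controls.

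GATA2 showed the largest rise of any member with counts in the controls. GATA2 (ENSG00000179348, hg38 chromosome 3, 128479427 to 128493185, read from the minus strand) had 320 and 308 counts in the control libraries, against 4260 and 4772 with EV. Its level went from 15.1 ± 0.545 to 240 ± 8.69 CPM (SD, n = 2), with both EV samples far above both controls. The log2 fold change was 3.99 (SE 0.06, edgeR adjusted p = 1.38e-12), and 911 of the 17465 genes tested had a larger one. GATA2-AS1, whose start lies 3973 bases from that of GATA2 and which overlaps it on the opposite strand, had 84 counts in each control and 101 and 128 in EV. Its log2 fold change of 0.59 (SE 0.23, edgeR adjusted p = 0.0407) was far smaller than that of GATA2. The libraries came from a directional kit, but whether the counting used strand is not given in the sources used here, so reads in the overlap may have been shared between the pair.

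GATA3, the luminal member of the family, was low in every sample but also rose. GATA3 (ENSG00000107485, chromosome 10, 8045378 to 8075203, plus strand) had 16 and 19 counts in the control libraries, against 183 and 195 with EV. This is 0.841 ± 0.0944 against 10.1 ± 0.00836 CPM, an 11.9-fold difference (edgeR log2 fold change 3.57 with an SE of 0.26, adjusted p = 4.34e-07). The replicates lay close together in both groups, and the groups did not overlap. Its neighbour GATA3-AS1, on the opposite strand, had 0 counts in 3 samples and 4 in EV replicate 2.

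GATA6, a factor of endodermal and other epithelial lineages, was not called in either direction. GATA6 (ENSG00000141448, chromosome 18, 22169443 to 22202528, plus strand) had 493 and 529 counts in the control libraries, against 429 and 463 with EV. The levels, 24.6 ± 1.00 and 23.7 ± 0.234 CPM, overlapped. The log2 fold change was -0.05 (SE 0.10, edgeR adjusted p = 0.687), and 2 standard errors on either side ran from -0.25 to 0.15. With offsets for spliced length and GC content it was -0.29 (edgeR adjusted p = 0.0277), so a modest fall depends on that correction. GATA6-AS1, which starts 435 bases away on the opposite strand, had 32 and 25 counts in the control libraries, against 17 and 11 with EV (log2 fold change -0.87, edgeR adjusted p = 0.151).

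Per spliced length, which lets genes be compared, the leading member of the family changed. GATA6 made up 60.3% and 62.5% of the summed RPKM of GATA1 to GATA6 in the controls, but 9.57% and 9.36% in EV. GATA2 went from 34.6% and 32.2% to 84.1% and 85.4%, and GATA3 2.25% and 2.58% against 4.69% and 4.53%. These are shares of a sum, so the smaller GATA6 share came with nearly level GATA6 CPM. GATA4, a relative of heart and endoderm, was low in both groups, at 1.16 CPM in the controls and 1.80 in EV (edgeR adjusted p = 0.199 for a log2 fold change of 0.64). GATA1 and GATA5 did not pass the filter, with 1 count each over the controls and 7 and 20 over EV, all of the latter in EV replicate 1.

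PPARG and its DNA-binding partner RXRA differed in direction. PPARG (ENSG00000132170, chromosome 3, 12287368 to 12434356, plus strand) had 731 and 774 counts in the control libraries, against 740 and 840 with EV. Its level was 36.2 ± 1.13 CPM in the controls and 42.0 ± 1.91 CPM in EV, and the 2 groups were adjacent without overlap. The log2 fold change was 0.22 (SE 0.08, edgeR adjusted p = 0.0410). The same test gave 0.19 without control replicate 1 (adjusted p = 0.238), 0.25 without control replicate 2 (adjusted p = 0.113) and 0.17 without EV replicate 2 (adjusted p = 0.105). The call of PPARG thus needed each of these 3 samples, and DESeq2 did not make it (adjusted p = 0.0882).

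RXRA, the partner shared by many nuclear receptors, fell. RXRA (ENSG00000186350, chromosome 9, 134317098 to 134440585, plus strand) had 3443 and 3434 counts in the control libraries, against 1649 and 1792 with EV. The level of RXRA dropped from 165 ± 1.81 to 91.6 ± 1.35 CPM, 1.81-fold lower (edgeR log2 fold change -0.85 with an SE of 0.05, adjusted p = 3.79e-08). Both EV samples were well below both controls. The length and GC offsets left a log2 fold change of -0.67 (edgeR adjusted p = 3.57e-07).

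The relatives of this pair moved unevenly. PPARA, the fatty acid receptor of liver and heart, fell from 67.5 ± 2.93 to 15.7 ± 0.880 CPM (by edgeR a log2 fold change of -2.10 with an SE of 0.09, adjusted p = 4.70e-09). PPARD, the broadly expressed receptor, stood at 71.1 ± 0.477 and 78.6 ± 4.37 CPM (by edgeR a log2 fold change of 0.14 with an SE of 0.06, adjusted p = 0.0592). PPARD was called higher under RLE scaling, upper quartile scaling, the filter of 50 counts and without EV replicate 1 (edgeR log2 fold changes of 0.16 to 0.20, adjusted p = 0.0123 to 0.0366), but had a log2 fold change of -0.09 with the length and GC offsets (edgeR adjusted p = 0.225). PPARD was the most abundant of the 3 PPAR genes per length in both groups, at 16.0 and 17.6 RPKM, against 7.98 and 9.27 for PPARG. RXRG had 0 counts in both controls and 32 and 67 in EV. Its EV mean was 18.1 times the control floor of 3 counts per library, a ratio with no error put on the EV mean. RXRB had 1 count in each sample, but it lies in a stretch of chromosome 6 where this table is nearly empty. There, from 29 to 34 Mb, only 8 of the 182 protein coding genes (4.4%) reached 10 counts in each of the 4 samples, while elsewhere on chromosome 6 this was 505 of 857 (58.9%). RXRB therefore has no usable measurement here. RARA, a retinoic acid receptor that also pairs with RXRA, rose from 31.9 ± 0.969 to 72.8 ± 6.17 CPM (by edgeR a log2 fold change of 1.19 with an SE of 0.08, adjusted p = 2.49e-07), while RARG fell by 0.28 on the log2 scale (SE 0.06, edgeR adjusted p = 0.00168).

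Partners and coregulators of nuclear receptors and GATA factors, a list that includes the receptors RARA, RARB and RARG, were mostly lower. All 18 listed genes were tested, and 13 fell, 2 rose and 3 were not called. Their median log2 fold change was -0.72, beside 0.02 over all tested genes, of which 34.5% were higher and 31.5% lower. Of the listed receptors RARA rose, RARG fell and RARB was not called. NRIP1, a corepressor, fell from 206 ± 2.35 to 57.2 ± 1.32 CPM (by edgeR a log2 fold change of -1.85 with an SE of 0.05, adjusted p = 1.01e-10). NCOR1, a scaffold of the corepressor complex, fell by 1.16 and its partner TBL1XR1 fell by 1.22 on the log2 scale (edgeR adjusted p = 3.80e-09 and 2.15e-08). The coactivator genes NCOA1, NCOA2, NCOA3, MED1, EP300 and CREBBP were lower as well, by 0.58 to 1.23 in log2 size, and so was PPARGC1B (log2 fold change -1.14, edgeR adjusted p = 0.00253). The coactivator PPARGC1A was called higher, with 6 and 1 counts in the control libraries, against 12 and 49 with EV (log2 fold change 3.20, edgeR adjusted p = 0.00695). It passed the filter through EV only, and without EV replicate 2 a single gene of the list was called higher. With the length and GC offsets 12 of the 18 were lower, and the log2 fold changes of NRIP1, NCOR1 and TBL1XR1 were -1.23, -0.57 and -0.26.

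Genes known as PPAR and RXR targets were mostly higher. Of 27 listed, 21 were tested, and 17 rose, 2 fell and 2 were not called. Over all tested genes 34.5% were higher and 31.5% lower. Among the 18 targets not near 0 in 1 group, 14 rose and 2 fell (median log2 fold change 0.82). Over all such genes 29.6% were higher and 33.5% lower, with a median of -0.05. The list was chosen with earlier results of these data known, which may have shaped its counts. ACSL3, an enzyme that activates fatty acids, rose from 121 ± 1.58 to 375 ± 10.9 CPM (by edgeR a log2 fold change of 1.63 with an SE of 0.04, adjusted p = 5.76e-11), and FABP5, a fatty acid carrier, from 44.5 ± 0.957 to 107 ± 1.44 CPM (1.26, SE 0.06). HILPDA, a lipid droplet protein also induced by hypoxia, fell from 19.5 ± 2.00 to 3.66 ± 0.349 CPM (-2.41, SE 0.17). The lipid droplet coat gene PLIN2 fell by 0.31 on the log2 scale, and CPT1A, the gate to mitochondrial fatty acid oxidation, had a log2 fold change of 0.06 (edgeR adjusted p = 0.490). The classical adipose targets FABP4, LPL and ADIPOQ held 118, 0 and 0 counts over the controls and 192, 17 and 2 over EV.

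**Figure D2:**
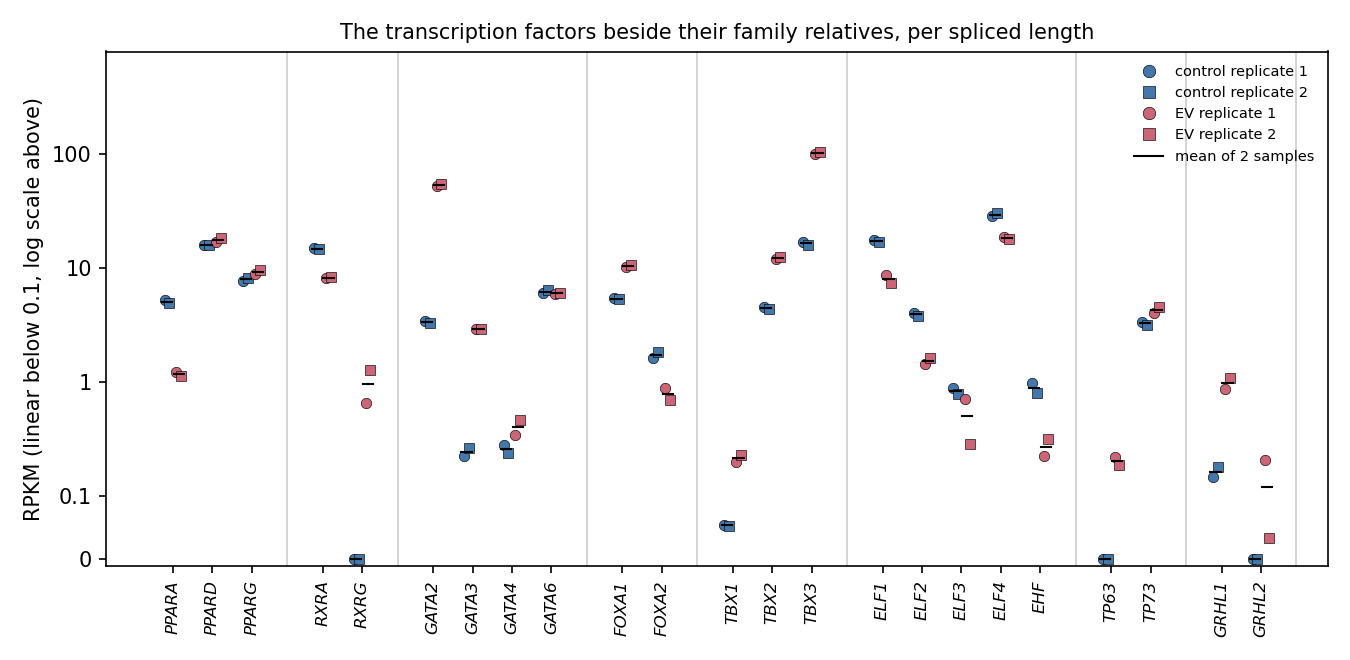
RPKM (CPM per kilobase of merged exons) of the 10 genes and of tested relatives, grouped by family, on an axis that is linear below 0.1 and logarithmic above; circles and squares are replicates 1 and 2, blue is control, red is EV. GATA2 overtakes GATA6 in EV, TBX3 and TBX2 are both higher, and PPARA and RXRA are lower in both EV samples.

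TBX3 was the most abundant of the 10 genes per kilobase of merged exons in both groups. In the controls its lead over RXRA rests on that length, since RXRA had the higher CPM there (165 against 98.9). TBX3 (ENSG00000135111, chromosome 12, 114670254 to 114684164, read from the minus strand) had 2101 and 2009 counts in the control libraries, against 10936 and 12141 with EV. Its level went from 98.9 ± 4.03 to 614 ± 18.3 CPM, 6.21-fold higher, with no overlap of the groups (edgeR log2 fold change 2.63 with an SE of 0.04, adjusted p = 1.82e-12). TBX2, the closest relative and likewise a repressor, rose from 26.8 ± 0.686 to 74.3 ± 2.79 CPM (by edgeR a log2 fold change of 1.47 with an SE of 0.08, adjusted p = 2.27e-08). TBX1, which had 8 counts in the controls together and 29 in EV, passed the filter through EV only (edgeR adjusted p = 0.0241, but 0.13 or 0.132 without either control), and TBX5 and TBX18 did not pass.

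FOXA1, which opens chromatin for GATA3 and nuclear receptors, also rose, 1.93-fold. FOXA1 (ENSG00000129514, chromosome 14, 37589984 to 37596059, read from the minus strand) had 453 and 444 counts in the control libraries, against 746 and 816 with EV, or 21.6 ± 0.502 and 41.6 ± 0.804 CPM. The log2 fold change was 0.95 (SE 0.09, edgeR adjusted p = 4.17e-06), and both EV samples lay above both controls. TTC6, which overlaps FOXA1 on the opposite strand, had 17 and 21 counts in the control libraries, against 5 and 7 with EV. FOXA2, the endodermal relative, fell from 4.50 ± 0.401 to 2.06 ± 0.354 CPM (by edgeR a log2 fold change of -1.13 with an SE of 0.29, adjusted p = 0.00552), a call lost without control replicate 2 (edgeR adjusted p = 0.0575). FOXA3 had 3 counts over the controls and 0 over EV.

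ELF3, an epithelial ETS factor, was the member on which the EV replicates differed most among those with counts in every sample. ELF3 (ENSG00000163435, chromosome 1, 202007945 to 202017188, plus strand) had 132 and 118 counts in the control libraries, against 94 and 40 with EV. Its CPM were 6.39 and 5.64 without EV, against 5.17 and 2.07 with it, so the groups did not overlap but 1 EV sample lay close to the controls. The log2 fold change was -0.74 (SE 0.35, edgeR adjusted p = 0.0882). EV replicate 2 decided the size: without it the value was -0.22 (edgeR adjusted p = 0.374), and without EV replicate 1 it was -1.54 (edgeR adjusted p = 0.00176). ELF3-AS1, on the opposite strand within the same locus, had 54 and 72 counts in the control libraries, against 25 and 33 with EV (edgeR log2 fold change -0.97 with an SE of 0.35, adjusted p = 0.0304).

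The tested ETS genes listed as family relatives of ELF3 fell. ETS2, an ETS gene of another list, rose (log2 fold change 2.64, edgeR adjusted p = 7.55e-12). EHF, the nearest epithelial relative of ELF3, went from 3.92 ± 0.546 to 1.19 ± 0.286 CPM (by edgeR a log2 fold change of -1.71 with an SE of 0.34, adjusted p = 0.00120). The broadly expressed ELF1, ELF2 and ELF4 fell by 1.12, 1.36 and 0.69 on the log2 scale (edgeR adjusted p = 4.78e-07, 1.18e-06 and 8.48e-07). ELF4, a factor also active in blood cells, was the most abundant of the group per length, at 29.6 RPKM in the controls and 18.4 in EV, against 0.837 and 0.503 for ELF3. ELF5 had 1 count over the controls and 12 over EV.

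TP63 and GRHL2 were near 0. TP63 (ENSG00000073282, chromosome 3, 189631416 to 189897279, plus strand) had 0 counts in both controls and 30 and 27 in EV, which is 1.65 and 1.39 CPM. The EV mean was 10.5 times the control floor of 3 counts per library. edgeR called TP63 (adjusted p = 0.000152), but its fitted fold is no bound. The TAp63 and DeltaNp63 forms come from separate starts of this gene and were not told apart by gene counts. GRHL2 (ENSG00000083307, chromosome 8, 101492432 to 101669726, plus strand) had 0 counts in both controls and 23 and 4 in EV, or 1.26 and 0.207 CPM. Only EV replicate 1 stood clear of the floor, and the gene did not pass the filter. With no count filter edgeR gave it an adjusted p of 0.00226.

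The same patterns were counted over the whole table. Of 19862 protein coding genes, 4097 had 0 counts in both controls, and 218 of these (5.32%) had 10 or more counts in both EV samples, as TP63 did. Counts of 20 or more in both EV samples were reached by 101 (2.47%). A pattern like that of GRHL2, with 20 or more in 1 EV sample and under 5 in the other, was seen for 18 genes. In the opposite direction, 2417 genes had 0 counts in both EV samples, and 9 of these had 10 or more in both controls. EV libraries also held a count for more genes (29456 and 28770) than control libraries (26258 and 26587).

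TP73 and GRHL1, relatives of TP63 and GRHL2, were better covered. TP73, a close homologue of TP63, went from 22.2 ± 1.19 to 29.1 ± 2.41 CPM (by edgeR a log2 fold change of 0.39 with an SE of 0.11, adjusted p = 0.00775), a call lost without control replicate 2 (edgeR adjusted p = 0.0729). GRHL1 rose from 1.30 ± 0.192 to 7.75 ± 1.16 CPM (by edgeR a log2 fold change of 2.57 with an SE of 0.28, adjusted p = 1.17e-05), and it was the one GRHL gene with counts in every sample. GRHL3 had 4 counts over the controls and 14 over EV.

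Of 20 genes known as TP63 targets, 18 were tested, and 7 rose, 7 fell and 4 were not called (median log2 fold change 0.00). These counts are near the shares over all tested genes, 34.5% higher and 31.5% lower, and are no result about the list. JAG1, a Notch ligand, rose from 57.5 ± 2.90 to 325 ± 2.59 CPM (log2 fold change 2.50, SE 0.05) and PERP, a desmosomal protein, by 0.77 (SE 0.04). DST, a cytoskeletal linker of hemidesmosomes, fell from 285 ± 7.86 to 52.5 ± 1.86 CPM (-2.44 with an SE of 0.05, edgeR adjusted p = 1.08e-11).

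Of 23 genes known as GRHL2 targets or epithelial partners, 12 had under 10 counts in both controls. Of 16 tested, 7 rose, 3 fell and 6 were not called, beside 34.5% higher and 31.5% lower over all tested genes. Among the 11 not near 0 in 1 group 3 rose and 3 fell. Those counts are near the 29.6% higher and 33.5% lower over all such genes, and are no result about the list. SPINT1, a protease inhibitor among the 3 that fell, went from 18.0 ± 0.469 to 8.26 ± 1.38 CPM (by edgeR a log2 fold change of -1.12 with an SE of 0.15, adjusted p = 5.84e-05).

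**Figure D3:**
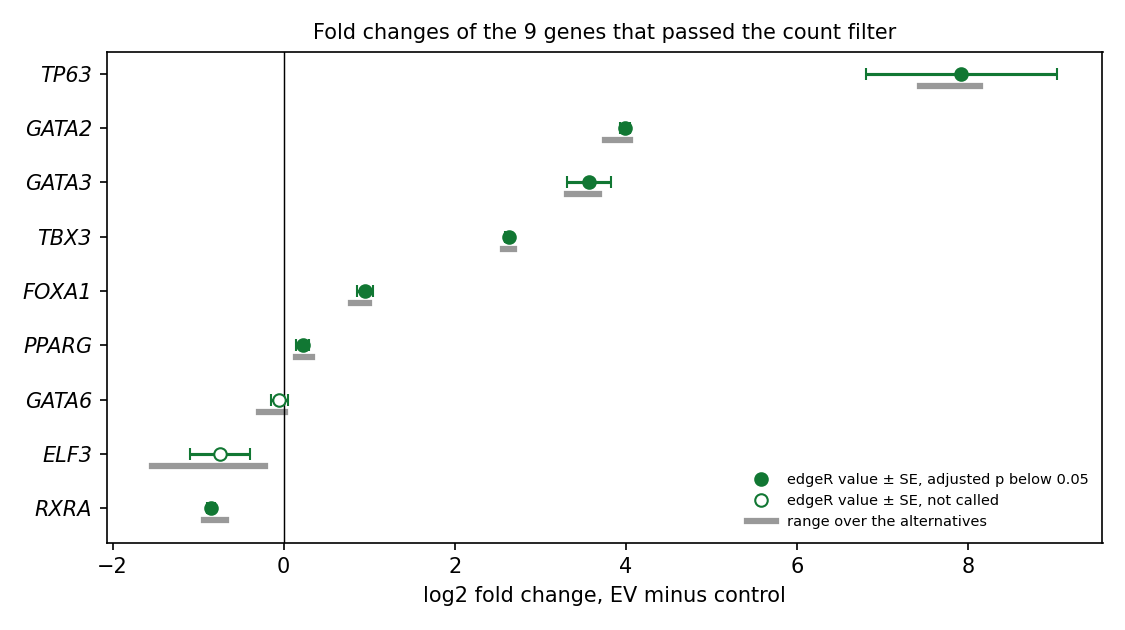
Log2 fold change (EV minus control) of the 9 genes that passed the count filter, from edgeR, with 1 standard error; filled points have an adjusted p below 0.05, and grey bars span the alternatives run for each gene. GATA2, GATA3 and TBX3 keep to narrow ranges far from 0, PPARG and GATA6 lie near 0, and ELF3 ranges from -1.54 to -0.22.

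The order of the members by level changed with treatment. In the controls it was TBX3 (16.6 ± 0.677 RPKM), RXRA (14.9 ± 0.163), PPARG (7.98 ± 0.250), GATA6 (6.23 ± 0.254), FOXA1 (5.42 ± 0.126), GATA2 (3.39 ± 0.122), ELF3 (0.837 ± 0.0738) and GATA3 (0.245 ± 0.0275), with TP63 and GRHL2 at 0. In EV it was TBX3 (103 ± 3.08), GATA2 (53.9 ± 1.95), FOXA1 (10.4 ± 0.202), PPARG (9.27 ± 0.422), RXRA (8.26 ± 0.122), GATA6 (6.02 ± 0.0593), GATA3 (2.93 ± 0.00243), ELF3 (0.503 ± 0.305), TP63 (0.204 ± 0.0242) and GRHL2 (0.121 ± 0.123). Neighbours in these orders did not overlap over the 2 samples, except TP63 and GRHL2. GATA2 thus moved from the sixth place to the second, and RXRA from the second to the fifth. Merged exons can exceed the transcript expressed, which lowers RPKM for genes with many isoforms.

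Luminal differentiation genes with usable counts were mostly higher. Of 28 listed, 15 were tested, and 11 rose, 1 fell and 3 were not called, 4 of the rises in genes near 0 in the controls. Among the 11 others 7 rose, with a median log2 fold change of 0.91. Of all tested genes 34.5% were higher, and of those not low in 1 group 29.6%, with a median of -0.05. This list too was chosen with earlier results known. KRT8 rose from 733 ± 8.56 to 1896 ± 10.5 CPM, KRT18 from 387 ± 3.63 to 725 ± 12.1 CPM and KRT7 from 436 ± 7.90 to 750 ± 3.68 CPM (edgeR adjusted p = 6.13e-12, 7.10e-10 and 2.07e-09). FGFR3, a receptor kinase frequent in luminal tumours and named after its values were seen, rose from 1.39 ± 0.259 to 18.0 ± 0.490 CPM. Of the uroplakins UPK1A was called higher, from 3 counts over the controls to 38 over EV (log2 fold change 3.70, SE 0.77, edgeR adjusted p = 0.00154), and passed the filter through EV only. The others did not pass, with UPK1B at 0 and 19, UPK2 at 10 and 14, and UPK3A at 0 and 1. KRT20 had 0 counts in every sample.

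Of 25 basal and squamous genes, 12 were tested, and 5 rose and 4 fell, again near the shares of 34.5% and 31.5% over all tested genes. The 4 rises other than KRT17 were in keratin genes near 0 in the controls (KRT5, KRT6A, KRT16 and KRT1), which left no room for a fall. Among the 8 others 1 rose, 4 fell and 3 were not called, beside 29.6% higher and 33.5% lower over all tested genes not low in 1 group. EGFR, the growth factor receptor, fell from 557 ± 20.2 to 191 ± 8.56 CPM, DSC3, a desmosomal cadherin, from 155 ± 0.183 to 87.7 ± 3.75 CPM, and PI3, an elastase inhibitor, from 53.4 ± 0.774 to 23.8 ± 2.38 CPM (edgeR adjusted p = 1.35e-10, 9.58e-08 and 8.70e-07). The length and GC offsets gave EGFR, DSC3 and PI3 log2 fold changes of -1.08, -0.35 and -1.76, in place of -1.54, -0.82 and -1.17.

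Other transcription factors of epithelia and bladder included several rises as large as that of TBX3. Of 26 listed, 22 were tested. Beside 34.5% higher and 31.5% lower over all tested genes, 13 of these rose, 6 fell and 3 were not called. Without control replicate 1, 3 were called lower. KLF4, a factor of barrier differentiation, rose from 30.6 ± 1.87 to 469 ± 5.36 CPM (by edgeR a log2 fold change of 3.94 with an SE of 0.05, adjusted p = 4.30e-13). HES1, a Notch-induced repressor, rose from 24.0 ± 0.156 to 303 ± 12.2 CPM (by edgeR a log2 fold change of 3.66 with an SE of 0.05, adjusted p = 1.11e-12), and KLF5 by 2.72 (SE 0.04). NOTCH1 fell by 0.84 and PAX8 fell by 0.73 on the log2 scale, while SOX9 had a log2 fold change of 0.08 (edgeR adjusted p = 0.181).

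**Figure D4:**
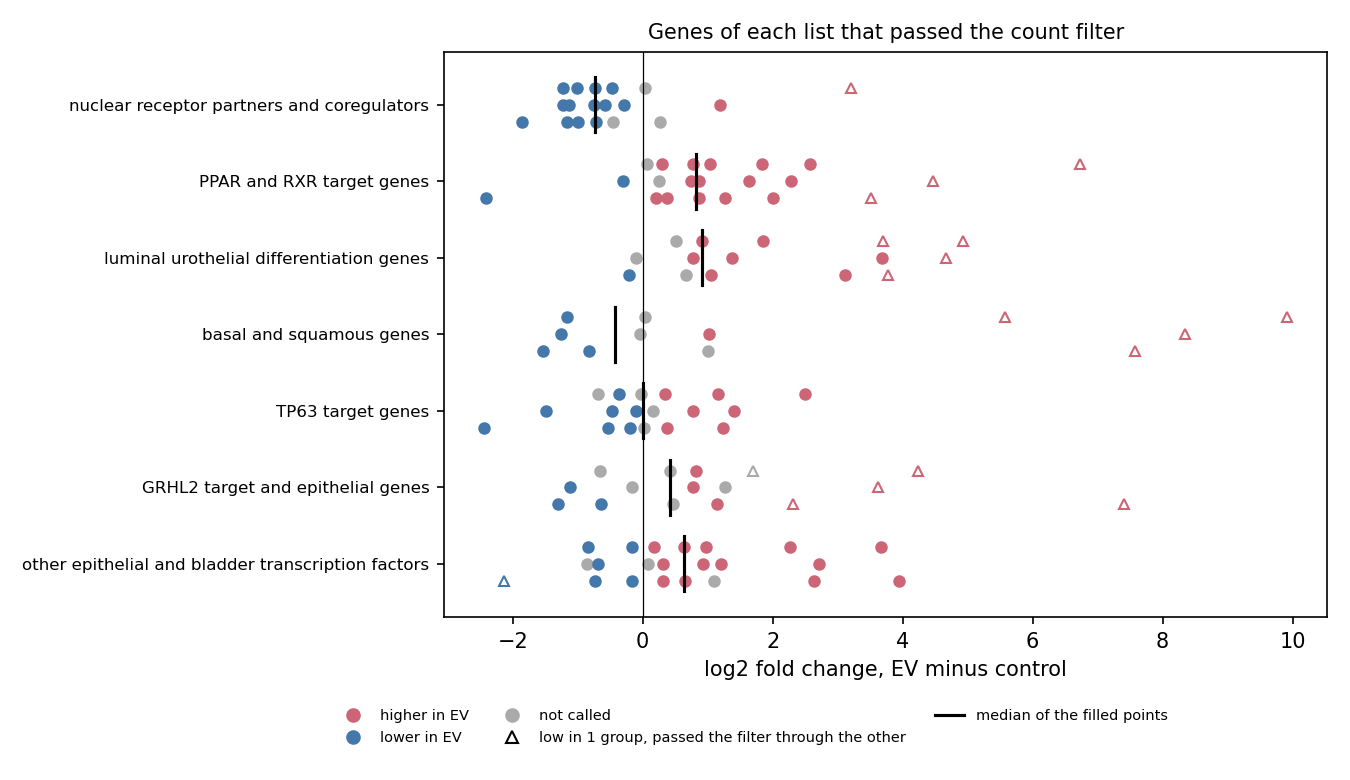
Log2 fold change (EV minus control) of the tested genes of 7 lists tied to the 10 factors; red is higher, blue lower and grey not called by edgeR, open triangles are genes low in 1 group that passed the count filter through the other, and black bars are medians of the filled points. Nuclear receptor partners and coregulators lie mostly left of 0, and PPAR and RXR targets and luminal genes mostly right. The keratins KRT5, KRT6A, KRT16 and KRT1 of the basal list appear as open triangles.

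Markers of blood, fibroblast and endothelial cells were low in the controls. The summed CPM of 11 leukocyte and other blood cell markers ran from 1.60 to 2.53 in the controls and from 43.4 to 43.8 in EV, and that of 9 fibroblast markers from 14 to 15 and from 16.5 to 19.5. The 6 endothelial markers summed to 10.9 to 13.7 CPM in the controls and 20.3 to 22.3 in EV. The defining leukocyte gene PTPRC had 4 and 13 counts over the groups, MS4A1 0 and 1, and CD3E 0 and 4. ITGAM and CD79A made up most of that first sum in EV (26.0 and 9.0 CPM). The 14 mesenchymal genes summed to 12284 to 12440 CPM in the controls and 8809 to 8844 in EV. Among 10 tested, 4 were higher, 4 lower and 2 not called. These counts are near the shares over all tested genes, 34.5% higher and 31.5% lower, and are no result about the list. SNAI1, a repressor that acts in epithelial to mesenchymal transition, rose from 1.11 ± 0.262 to 1114 ± 41.2 CPM (by edgeR a log2 fold change of 9.97 with an SE of 0.08, adjusted p = 1.37e-14), and SNAI2, VIM and TGFBI rose by 0.77, 0.18 and 0.68 on the log2 scale. FN1, which makes fibronectin, fell from 10014 ± 107 to 5298 ± 44.0 CPM and SPARC, a matrix protein, from 271 ± 5.60 to 115 ± 1.93 CPM (edgeR adjusted p = 1.23e-11 and 6.65e-10). ZEB1 and ZEB2 of this list fell by 0.53 and 0.89 on the log2 scale (edgeR adjusted p = 6.43e-05 and 3.77e-06). With the length and GC offsets 2 of the 14 were called lower, FN1 and SPARC, and the log2 fold change of FN1 was -0.20 in place of -0.92. The part of these markers in the changes of the 10 factors was not tested.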

How the data were processed

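Total RNA of cells labelled HT1376 was sequenced in 2 control and 2 EV samples. The authors deposited raw counts per gene in 1 table, aligned to hg38 per the submitters' processing notes. No source used here names the aligner, the annotation or the strand setting of the counting. Libraries were made with a directional kit, per the labels' protocols. All 61860 rows named a gene by identifier, 61757 had a symbol and 58308 matched GENCODE v29, from which positions and merged exon lengths were taken.

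Counts were tested with edgeR 4.0.16 (R 4.3.3) after filterByExpr (10 counts minimum, 15 in total), TMM scaling, estimateDisp and glmQLFit, with Benjamini-Hochberg adjustment over 17465 genes and calls at 0.05. The standard error is the size of the log2 fold change divided by the square root of F. On simulated counts for 16039 genes, the test recovered 42%, 82%, 98% and 100% of genes changed by 0.5, 1, 2 and 4 on the log2 scale, with 3.01% of calls false. Only 200 genes were changed there and all genes shared the median dispersion, whereas 66% of the real genes tested were called. These rates may thus not hold for the real comparison. A gene was low in 1 group when both samples there were under 0.5 CPM and it passed through the other. The floor is 3 counts per library, 0.143 to 0.165 CPM, and floors and ratios cover counting error only. A fold against the floor divides the EV mean by the mean control floor and is no lower bound.

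The members and the gene lists were chosen with earlier results of these data known. Shares of a list called higher or lower, set beside those over all genes, may partly reflect that choice. Named are the members, their family relatives, the 3 genes of smallest adjusted p in each list, and defining markers near 0. A few genes that this rule picks are not reported here. RARA, RARG, the coactivators, SNAI2, TGFBI, PLIN2, CPT1A, FABP4, LPL, ADIPOQ, FGFR3, VIM, NOTCH1, SOX9 and PAX8 were named after their values were seen. So were CD44, ERBB2, RARB, ETS2, ZEB1 and ZEB2. The alternatives run were a fit with DESeq2 1.42.0, scaling by RLE or by the upper quartile, no filter, at least 50 counts in 2 samples, the replicate number as a block, dropping 1 sample at a time (the lone sample left in a group is then assumed to vary like the other group), an absolute log2 fold change of at least 1, and offsets for length and GC (mgcv 1.9.3). Promoter windows came from RefSeq (GRCh38.p14).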

Additional observations from a re-analysis of the deposited data

How the results depend on the processing

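No direction called among the 10 genes reversed under any alternative run. The log2 fold changes of GATA2 (3.75 to 4.05), TBX3 (2.56 to 2.69) and GATA3 (3.31 to 3.69) stayed called under every alternative. Those of FOXA1 (0.79 to 1.00) and RXRA (-0.93 to -0.67) stayed called under all but the fold threshold. TP63 stayed called wherever it was tested (it does not pass the filter of 50 counts). With 0 counts in both controls TP63 could only rise, and its fitted log2 fold change (7.44 to 8.14) is no bound. PPARG was not called with DESeq2 (0.24, adjusted p = 0.0882), with no count filter (0.14, edgeR adjusted p = 0.261), or under the fold threshold of 1 (0.22); leaving out samples gave 0.17 to 0.26. RXRA (-0.85) and FOXA1 (0.95) also lie under that threshold. GATA6 was called with length and GC offsets (-0.29, edgeR adjusted p = 0.0277). ELF3 was called with no filter (-0.82, edgeR adjusted p = 0.0440), and leaving out samples gave -1.54 to -0.22. Replicate numbers share only a number (correlation of same-numbered deviations 0.0159). The replicate block gave 5957 genes higher and 5573 lower, against 6019 and 5509, and called ELF3 (-0.83, edgeR adjusted p = 0.00493). GRHL2 enters the test only with no filter (6.83, SE 1.73). Members called lower were 2 with no filter, the block, the offsets or without EV replicate 1, and 0 under the fold threshold, against 1. Over all genes that threshold left 3063 higher and 2322 lower.

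With no filter the median log2 fold change over 38205 genes was 0.24, a shift of 0.22. The cause of these changes was not tested. Levels without TMM factors differed by 6.02% to 6.67% in the controls and by -6.63% to -5.92% in EV. List counts moved by over 1.5 times under the fold threshold for partners and coregulators lower (7 against 13) and PPAR and RXR targets higher (10 against 17). So did those, higher and lower, of TP63 targets (4 and 2 against 7 and 7) and other transcription factors (6 and 1 against 13 and 6). Mesenchymal genes were 1 and 1 against 4 and 4. There PPAR and RXR targets lower were 1 against 2 and luminal genes lower 0 against 1. With 50 counts required, basal genes higher were 2 against 5 and GRHL2 targets higher 4 against 7. Partners and coregulators higher were 1 against 2, and fibroblast markers higher 1 against 2. Without control replicate 1 the lower calls were 3 against 6 for other transcription factors, 1 against 2 for PPAR and RXR targets and 0 against 1 for luminal genes. Without EV replicate 1 the fibroblast markers called lower were 1 against 0. The offsets gave 2 against 4 mesenchymal genes lower and 0 against 1 luminal gene lower. Counts under about 30 per sample, as for TP63, GRHL2 and GATA3 in the controls, limit the precision of their folds.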
